A study of Mus musculus with 16 samples.

Results

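Integrins are cell-surface receptors built of an alpha and a beta chain, and 10 of the mouse chains were followed here in whole lung: the alpha-v chain Itgav with its possible partners Itgb6, Itgb5, Itgb3 and Itgb8, and Itgb1 with the alpha chains Itga5, Itga8, Itga11 and Itga2. They were chosen by name, with earlier results of these data known, as chains that bind extracellular matrix or activate TGF-beta. Every array spot annotated to them was examined, 14 of 62976 spots. The array named 20863 genes, of which 20304 were bright enough to be tested, and all 10 chains were among these. The series asked what a CAV1 target site blocker (CAV1 TSB), an oligonucleotide that covers a microRNA site in the Cav1 transcript, does in bleomycin-induced lung fibrosis, and measured 16 lung samples on a single-colour (Cy3) Agilent array, 1 array each.

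The samples formed 4 groups of C57BL/6 mice aged 9 to 12 weeks. They were Bleomycin + CAV1 TSB (6 samples), Bleomycin + Control TSB (6), PBS + CAV1 TSB (2) and PBS + Control TSB (2). CAV1 TSB was given at 5 mg/kg, Control TSB was a control formulated for in vivo use, and bleomycin, a drug that injures the alveoli, was given at 1 unit/kg. All agents went into the trachea, and the PBS samples received a blocker as well, so no group was free of one. Blocker was instilled 4 and 2 days before bleomycin or PBS and again 4 days after it. When lungs were taken after bleomycin is not given in the sources used here, and the labels do not state that each sample was a separate animal, so p-values measure only the spread between these samples.

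An integrin binds matrix outside the cell and links it to the actin cytoskeleton inside. TGF-beta is secreted inside a latent complex, and integrins that hold the alpha-v chain bind an RGD sequence in that complex and can release the active growth factor. The Itgb6 chain pairs only with alpha-v and is found on epithelium, where injury is known to raise it. Itgb5 and Itgb3 pair with alpha-v on fibroblasts, endothelium and other cells, and Itgb8 on airway epithelium and some other cells. Itgb1 is the shared partner of many alpha chains: with Itga5 it is the classical fibronectin receptor, with Itga8 it binds nephronectin and RGD ligands, and with Itga11 or Itga2 it binds collagen.

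Values are log2 intensities, so that a difference of 1 is a factor of 2, and each array's median lay at 6.51 to 6.52 and its 25th percentile at 5.97 to 5.99. A gene with several spots was represented by its brightest one. Levels of different probes cannot be set against each other, but each probe's place within its array can be given. Averaged over the arrays, the Itgb5 spot stood at percentile 96.2 of all spots, Itga8 at percentile 94.3, Itgb3 at 91.0, Itgb1 at 90.8 and Itgb6 at 85. Itga11 stood at percentile 73.5, Itgav at 73.0, Itga5 at 72.6 and Itga2 at 56.5. Itgb8 was at the dim end of the array, at percentile 27.9 on average (range 9.7 to 40.9), and exceeded the 25th percentile in 12 of 16 arrays.

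Several arrays stood apart, and the results that rest on them are given with and without them. Replicate 2 of PBS + Control TSB and replicate 6 of Bleomycin + CAV1 TSB held the 2 highest of the 16 values in 11.8% of the genes tested, Itgb1 and Itga5 among them. The same 2 arrays held the 2 lowest values in 18.6% of genes, Itga11 among them. In 5 arrays, markers of stratified squamous epithelium (mean 7.18 to 7.68, against 10.97 to 11.94 in the other 11) and of skeletal muscle (6.89 to 7.98, against 9.64 to 12.09) were low. These 5 were both PBS + CAV1 TSB arrays, Bleomycin + Control TSB 2 and 6, and Bleomycin + CAV1 TSB 3. Both PBS + Control TSB arrays were among the other 11, so after PBS the blocker and this tissue content cannot be told apart. Markers of the lung itself were bright in all groups, with alveolar type 2 markers averaging 15.40, 15.35, 15.51 and 15.52 in Bleomycin + CAV1 TSB, Bleomycin + Control TSB, PBS + CAV1 TSB and PBS + Control TSB. In whole lung, fewer cells of a type and less RNA per cell cannot be told apart.

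The promoters of 3 chains are shown: that of Itgb6, the chain that passed the test between the blockers, and those of Itga5 and Itgb1, whose brightest spots moved together. Each runs 5′ to 3′ on the gene's strand, from 250 bases before to 50 after the annotated start, from RefSeq on GRCm38.p6. Itgb6 lies at chr2:60722554-60722853 (minus strand), Itga5 at chr15:103366742-103367041 (minus) and Itgb1 at chr8:128685404-128685703 (plus). Capitals mark matches, on either strand, to the searched motifs.
Itgb6: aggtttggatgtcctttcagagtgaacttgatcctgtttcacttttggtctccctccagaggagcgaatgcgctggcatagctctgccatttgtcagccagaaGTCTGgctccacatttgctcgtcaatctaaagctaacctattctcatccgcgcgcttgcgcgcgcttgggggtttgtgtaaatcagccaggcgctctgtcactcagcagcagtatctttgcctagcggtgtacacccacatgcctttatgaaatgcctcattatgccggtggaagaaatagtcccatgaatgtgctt
Itga5: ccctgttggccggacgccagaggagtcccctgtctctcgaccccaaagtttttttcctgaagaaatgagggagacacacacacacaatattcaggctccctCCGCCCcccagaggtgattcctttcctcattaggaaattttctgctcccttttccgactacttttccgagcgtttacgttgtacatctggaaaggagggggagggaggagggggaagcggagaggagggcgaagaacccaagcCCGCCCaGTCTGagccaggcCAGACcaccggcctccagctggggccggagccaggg
Itgb1: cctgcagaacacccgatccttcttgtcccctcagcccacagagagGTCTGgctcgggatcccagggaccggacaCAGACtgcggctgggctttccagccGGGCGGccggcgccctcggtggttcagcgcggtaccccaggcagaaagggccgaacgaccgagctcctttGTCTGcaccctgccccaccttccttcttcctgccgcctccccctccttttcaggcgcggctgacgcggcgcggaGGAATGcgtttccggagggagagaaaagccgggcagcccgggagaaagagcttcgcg

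The motifs were the Smad box CAGAC, the GC box GGGCGG, the TEAD motif GGAATG, the AP-1 motif TGANTCA, the cAMP response element TGACGTCA and TATAAA. The Itgb6 window shown holds 1 Smad box and no GC box. The Itga5 window holds 2 of each, and the Itgb1 window holds 3 Smad boxes, 1 GC box and 1 TEAD motif. Among 32851 promoters of the same length, 49.6% hold a Smad box, 35.7% a GC box and 14.7% a TEAD motif. These are matches of letters in the windows and say nothing of binding. Of the 10 chains 9 had a window, with 2 for Itgb6, and the Itgb6 window not shown holds no match to any of these motifs.

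Which integrin chains differed under CAV1 TSB after bleomycin was asked first. The Itgb6 chain was higher with CAV1 TSB, and it was the 1 chain of the 10 that passed the test, while 1.61% of all genes tested passed it (1.2% higher and 0.414% lower). Before adjustment, 2 chains had a p under 0.05, Itgb6 and Itgav, against 9.08% of genes. Itgb6 signal in Bleomycin + CAV1 TSB had its lowest value at 10.64, its median at 11.0 and its highest at 11.61, against 10.16, 10.43 and 10.56 in Bleomycin + Control TSB. Every CAV1 TSB array lay above every Control TSB array, as was so for 1.5% of genes tested. The means were 11.05 ± 0.32 and 10.41 ± 0.15 (SD, n = 6 each), a log2 difference of 0.64 (SE 0.15, 95% interval 0.32 to 0.95, limma adjusted p = 0.0398).

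The same order was seen without bleomycin. The PBS + CAV1 TSB arrays had Itgb6 at 10.25 and 11.0, and the PBS + Control TSB arrays at 9.76 and 9.85. The difference was 0.82 (interval 0.28 to 1.36), which did not pass (limma adjusted p = 0.279), although the groups did not overlap. These PBS groups also differed in squamous and muscle markers, so blocker and tissue content cannot be told apart in them. Between bleomycin and PBS the CAV1 TSB difference itself differed by -0.18 (interval -0.80 to 0.45, limma adjusted p = 0.767). From the highest mean to the lowest the order was Bleomycin + CAV1 TSB, PBS + CAV1 TSB (10.62), Bleomycin + Control TSB and PBS + Control TSB (9.81). The PBS + CAV1 TSB arrays spanned the space between their neighbours in that order and overlapped both of them.

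A second, dimmer Itgb6 spot ran the same way. It read 7.27, 7.70 and 8.13 (lowest, median, highest) in Bleomycin + CAV1 TSB, against 6.91, 7.26 and 7.39 in Bleomycin + Control TSB. The groups overlapped, and the difference of 0.55 (SE 0.14) did not pass when all spots were tested (limma adjusted p = 0.07). On this spot the PBS + CAV1 TSB arrays read 7.14 and 7.64, against 6.77 and 6.88 in PBS + Control TSB.

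The Itgb6 call was close to the threshold. Its size stayed between 0.52 and 0.72 when any 1 of the 16 arrays was left out, with adjusted p from 0.0165 to 0.0981, and it passed in 5 of these 16 fits. It passed without Bleomycin + CAV1 TSB 1 and without any 1 of the PBS arrays. It did not pass without any other 1 bleomycin array, nor without the 5 arrays low in squamous and muscle markers (0.58, limma adjusted p = 0.208, with 65 genes passing in all against 327), nor without both arrays that stood apart (0.0707). Itgb6 also did not pass with a skeletal muscle covariate or with a replicate block. The squamous marker mean ranged from 7.58 to 11.94 in Bleomycin + CAV1 TSB and from 7.43 to 11.56 in Bleomycin + Control TSB. Its part in the Itgb6 difference was not tested beyond the fits named here. After PBS the squamous mean was 7.18 and 7.26 with CAV1 TSB and 11.61 and 11.06 with Control TSB. The PBS arrays therefore cannot separate the blocker from squamous content.

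**Figure D1:**
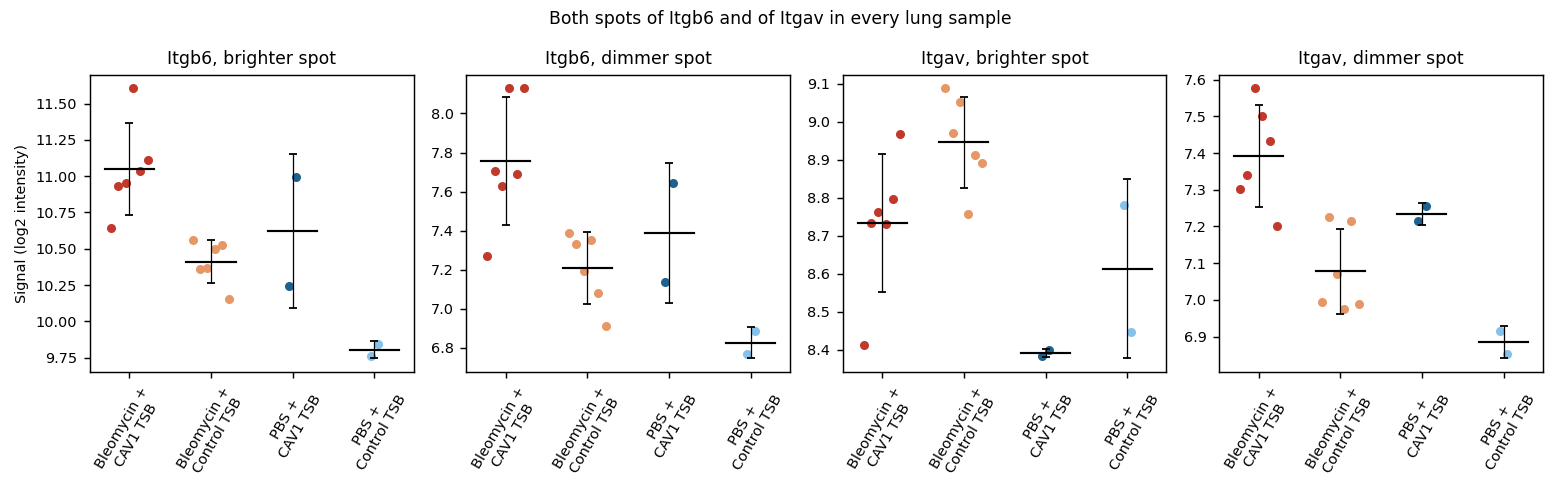
Log2 intensity of both spots of Itgb6 and of Itgav by group, 1 point per lung sample, with a line at the group mean and bars of 1 SD. Both Itgb6 spots sit higher in Bleomycin + CAV1 TSB than in Bleomycin + Control TSB (log2 differences 0.64 and 0.55), while the Itgav spots run in opposite directions (-0.21 and 0.31).

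Itgav, the alpha chain that Itgb6 needs, gave no single direction under CAV1 TSB. Its brighter spot read 8.41, 8.75 and 8.97 (lowest, median, highest) in Bleomycin + CAV1 TSB, against 8.76, 8.94 and 9.09 in Bleomycin + Control TSB. The groups overlapped, and the difference of -0.21 (interval -0.40 to -0.02) did not pass (limma adjusted p = 0.469). Its dimmer spot read 7.20, 7.39 and 7.58 in Bleomycin + CAV1 TSB, against 6.97, 7.03 and 7.22 in Bleomycin + Control TSB. These groups overlapped slightly, and the difference was 0.31 (SE 0.07) and passed when every spot was tested (limma adjusted p = 0.0345), so that the spots of this gene disagree in sign.

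The disagreement was also there without bleomycin. On the brighter Itgav spot the PBS + CAV1 TSB arrays read 8.38 and 8.40, against 8.78 and 8.45 in PBS + Control TSB. On the dimmer spot they read 7.21 and 7.26, against 6.92 and 6.85. Which of the spots follows the Itgav transcript was not tested.

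For the other partners of alpha-v the difference between CAV1 TSB and Control TSB after bleomycin was small beside its interval. For Itgb5 it was -0.08 (interval -0.30 to 0.13) and for Itgb3 0.14 (limma adjusted p = 0.941 and 0.843). The dimmer Itgb3 spot, at percentile 51.2, ran the other way, at -0.08 (limma adjusted p = 0.882 over all spots). Itgb8 differed by 0.01 (interval -0.13 to 0.16), with 5.83 to 6.16 in Bleomycin + CAV1 TSB and 5.86 to 6.20 in Bleomycin + Control TSB. These Itgb8 readings are near the low end of the array, where a small change may not be detectable.

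In the Itgb1 family no chain passed either. Itgb1 itself differed by 0.05 after bleomycin, with its dimmer spot at -0.01. Itga8 differed by 0.16 (limma adjusted p = 0.85) and Itga11 by -0.15 (interval -0.46 to 0.16), and the interval for Itga2 ran from -0.20 to 0.20. Itga5 had the widest interval of the 10, with a difference of -0.21 (interval -1.37 to 0.96). The median difference over the 10 chains was 0.01, against -0.01 over all genes tested.

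After PBS, 0 of 10 chains passed with limma between CAV1 TSB and Control TSB, and 0.31% of genes did (0.276% higher and 0.0345% lower). Before adjustment, Itgb6 and Itga8 had a p under 0.05, 2 chains, against 12.8% of genes. Itga8 read 13.25 and 13.07 in PBS + CAV1 TSB, against 12.89 and 12.45 in PBS + Control TSB, a difference of 0.49 (limma adjusted p = 0.386). Both CAV1 TSB arrays were above both Control TSB arrays in Itgb6 and Itga8 (23.7% of genes), and below them in Itgav and Itga5 (14.7%). All of these PBS differences are also differences between arrays low and not low in squamous and muscle markers.

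**Figure D2:**
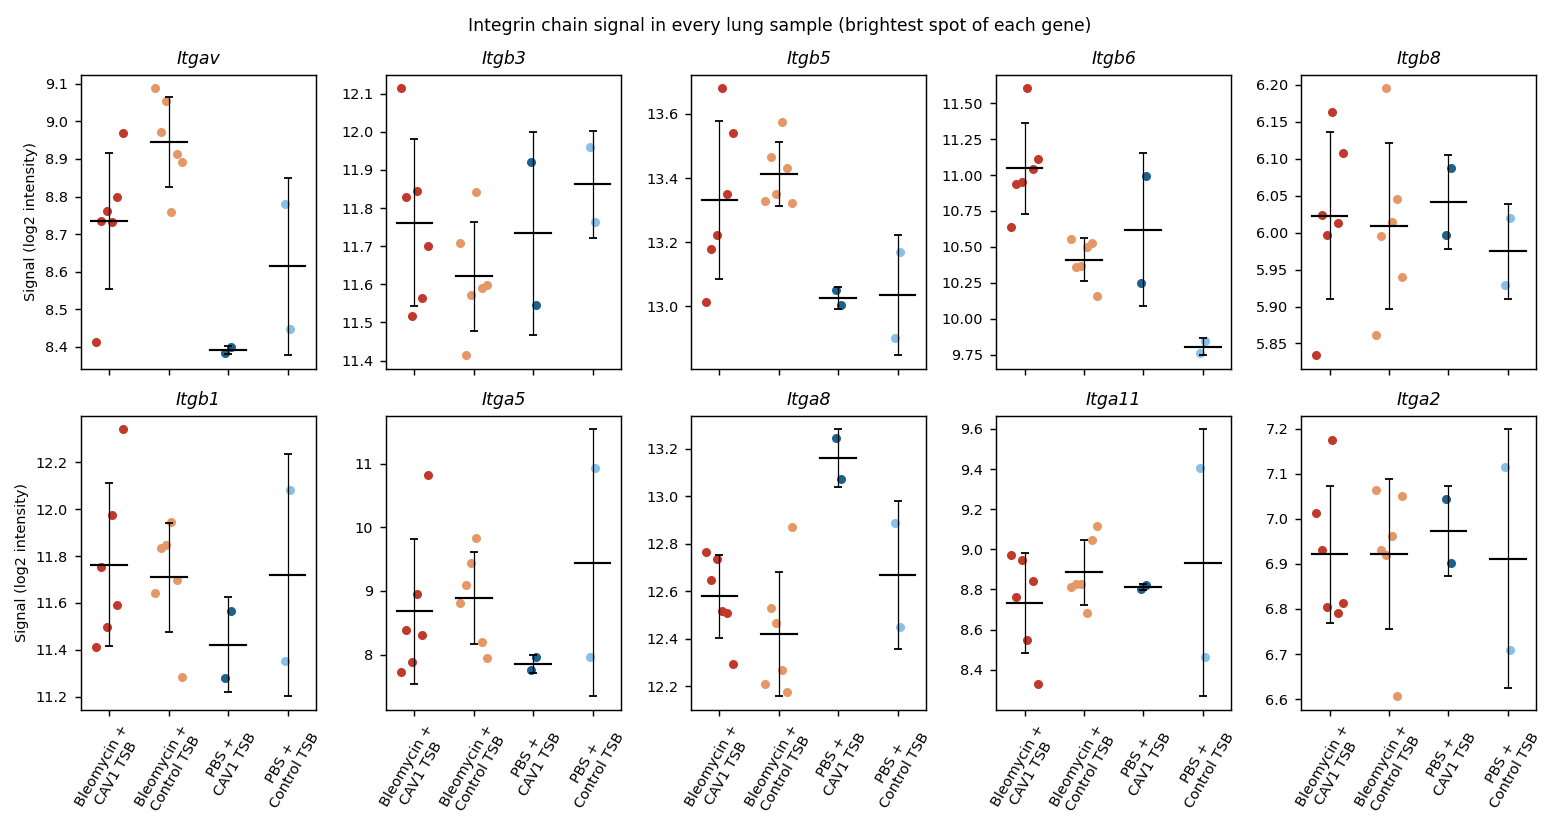
Log2 intensity of each integrin chain (brightest spot) in each lung sample by group, with a line at the group mean and bars of 1 SD. Itgb6 is separated between the blockers after bleomycin, and Itga5 is spread most widely, from 7.73 to 10.93.

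Which chains differed between bleomycin and PBS was asked next, with the effect averaged over both blockers. Itgav was higher after bleomycin and was the 1 chain of the 10 that passed, against 5.93% of all genes tested. At an unadjusted p under 0.05 there were 4 chains, Itgav, Itgb5, Itgb6 and Itga8, against 17.4% of genes. Its brighter spot was at 8.73 ± 0.18 in Bleomycin + CAV1 TSB and 8.95 ± 0.12 in Bleomycin + Control TSB (SD, n = 6 each), with the PBS arrays between 8.38 and 8.78. The averaged log2 difference was 0.34 (SE 0.09, interval 0.15 to 0.53, limma adjusted p = 0.0379), and bleomycin and PBS arrays overlapped. It was 0.33 under Control TSB and 0.34 under CAV1 TSB, neither of which passed alone (limma adjusted p = 0.206 and 0.213). The Control TSB difference did pass without PBS + Control TSB 1 (0.50, limma adjusted p = 0.04), in a fit in which 20.2% of all genes passed. The dimmer Itgav spot differed in the same direction, by 0.18, without passing (limma adjusted p = 0.213).

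Leaving out 1 array changed which chains passed. Itgav passed in 5 of 16 such fits, with differences from 0.25 to 0.42, and did not pass without both arrays that stood apart (0.23, limma adjusted p = 0.138). Without Bleomycin + CAV1 TSB 1, in which the macrophage marker mean of 9.70 lay in the PBS range of 9.64 to 10.01, 4 chains passed, Itgav, Itgb5, Itgb6 and Itga8, against 7.86% of all genes. Without Bleomycin + Control TSB 6 there were 3, Itgav, Itgb6 and Itga8, against 5.87%. Itgav passed too without Bleomycin + CAV1 TSB 6, Bleomycin + Control TSB 4 or PBS + Control TSB 1. It did not pass without any 1 of the other arrays, and Itgb6 passed in its place without Bleomycin + CAV1 TSB 4 or PBS + CAV1 TSB 2, and Itga8 without PBS + Control TSB 2.

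Among the beta chains, Itgb5 and Itgb6 missed the threshold. Itgb5 read 13.02, 13.29 and 13.68 (lowest, median, highest) in Bleomycin + CAV1 TSB and 13.32, 13.39 and 13.58 in Bleomycin + Control TSB. Its PBS + CAV1 TSB arrays read 13.05 and 13.0, and its PBS + Control TSB arrays 12.90 and 13.17. All Bleomycin + Control TSB arrays were above both PBS + Control TSB arrays for Itgb5 and for Itgb6, as was so for 8.55% of genes tested. The averaged difference was 0.34 for Itgb5 and 0.52 for Itgb6 (limma adjusted p = 0.0614 and 0.051).

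Itga8, a chain of alveolar fibroblasts and smooth muscle, lay on the low side after bleomycin. It read 12.29, 12.58 and 12.77 in Bleomycin + CAV1 TSB and 12.17, 12.37 and 12.87 in Bleomycin + Control TSB. The PBS arrays, given above, read 12.45 to 13.25, and all Bleomycin + CAV1 TSB arrays were below both PBS + CAV1 TSB arrays, as were 12.3% of genes tested. In the opposite direction, Itgav did not overlap between these groups, like 8.38% of genes. Averaged over the blockers the difference was -0.42 (limma adjusted p = 0.0613), with -0.58 under CAV1 TSB (interval -0.95 to -0.21) and -0.25 under Control TSB. The averaged Itga8 difference passed in 3 of the 16 fits that left out 1 array (-0.53 to -0.31). It also passed in 1 of the 11 other alternatives (-0.50 to -0.38). The fibroblast marker mean was 12.62 and 12.63 after bleomycin with CAV1 TSB and Control TSB, and 12.55 and 12.57 in their PBS groups. That mean covers markers that moved in opposite directions. Of the 6 markers 2 had a positive averaged difference, with a range from -0.39 to 0.70 and a median of -0.11. As higher 1 of them passed and as lower 1, against 4.25% and 1.68% of all genes tested. The part of these markers in the Itga8 values was not tested.

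The remaining chains did not pass between bleomycin and PBS, and their groups overlapped. Itgb3, also the beta chain of the platelet fibrinogen receptor, differed by -0.11 (limma adjusted p = 0.704) and by 0.02 on its dimmer spot, and the platelet marker mean was 9.45 to 10.59 over the bleomycin arrays and 10.05 to 10.50 over the PBS arrays. The Itgb3 arrays read 11.52 to 12.12 in Bleomycin + CAV1 TSB, 11.41 to 11.84 in Bleomycin + Control TSB, 11.55 and 11.92 in PBS + CAV1 TSB and 11.76 and 11.96 in PBS + Control TSB, and all groups overlapped. Itgb1 read 11.41 to 12.34, 11.29 to 11.94, 11.28 and 11.57, and 11.35 and 12.08 in the same 4 groups, which overlapped too. It differed by 0.17 on its brighter spot and -0.13 on its dimmer one, Itga11 by -0.06 and Itgb8 by 0.01. Itga2 read 6.79 to 7.18 in Bleomycin + CAV1 TSB, 6.61 to 7.06 in Bleomycin + Control TSB, 6.90 and 7.04 in PBS + CAV1 TSB and 6.71 and 7.12 in PBS + Control TSB, with a difference of -0.02. Itga5 differed by 0.13 with an interval from -1.03 to 1.30. The median over the 10 chains was 0.07, and over all genes 0.01.

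Within single blockers, 0 of 10 chains passed with limma. Under Control TSB 2.41% of genes passed, and under CAV1 TSB 0.517%. At an unadjusted p under 0.05 there were 3 chains under Control TSB (Itgav, Itgb5 and Itgb6, against 15.9% of genes) and 3 under CAV1 TSB (Itgav, Itgb5 and Itga8, against 14.8%). In the interaction of bleomycin and CAV1 TSB, 0 chains and 0% of genes passed, with 0 chains and 9.22% of genes at an unadjusted p under 0.05. The count over all genes depended on the PBS arrays: 3019 genes (14.9%) passed without PBS + Control TSB 1, 41 without PBS + Control TSB 2 and 14 without either of the PBS + CAV1 TSB arrays, while 0 chains passed in each of these fits. A difference in the bleomycin effect between the blockers was not detectable for any of the 10 chains with these arrays.

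**Figure D3:**
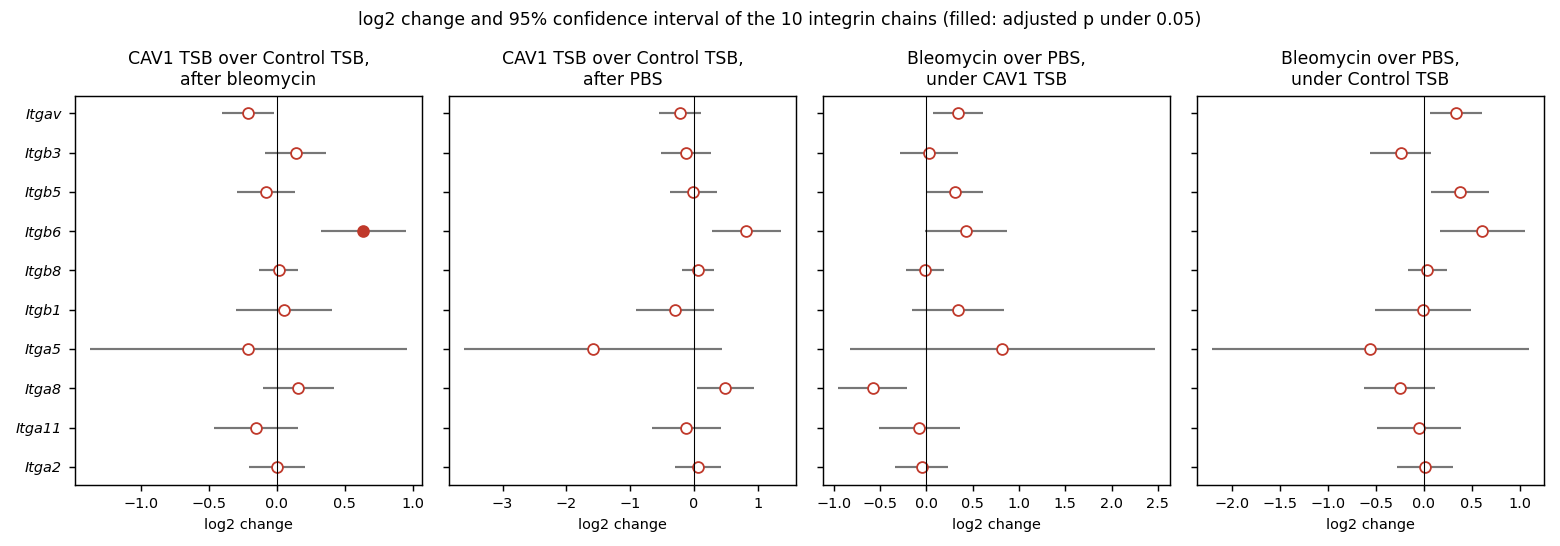
Log2 change of the 10 integrin chains (points) with its 95% confidence interval (bars) for CAV1 TSB over Control TSB after bleomycin and after PBS, and for bleomycin over PBS under each blocker. The filled point, Itgb6 between the blockers after bleomycin (0.64), passed at an adjusted p under 0.05, and the intervals of Itga5 are the widest in each panel.

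Itga5 had the largest SD of the 10 chains in each bleomycin group, 1.13 in Bleomycin + CAV1 TSB and 0.72 in Bleomycin + Control TSB (n = 6 each), and the Bleomycin + Control TSB arrays include neither of the pair that stood apart. It read 7.73, 8.34 and 10.82 (lowest, median, highest) in Bleomycin + CAV1 TSB and 7.95, 8.95 and 9.83 in Bleomycin + Control TSB. The PBS + CAV1 TSB arrays read 7.76 and 7.96, and the PBS + Control TSB arrays 7.96 and 10.93. The high readings of 10.82 and 10.93 belong to Bleomycin + CAV1 TSB 6 and PBS + Control TSB 2, which were high in many genes. Without this pair the difference between CAV1 TSB and Control TSB in Itga5 was -0.64 after bleomycin and -0.10 after PBS, against -0.21 and -1.58 with it. Between bleomycin and PBS under Control TSB the Itga5 difference was -0.56 with the pair and 0.93 without it, and none of these passed. Without PBS + Control TSB 1, which left the high array alone in its group, the difference between the blockers after PBS was -3.07 and passed (limma adjusted p = 0.0422), as did 19.9% of all genes in that fit.

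Itgb1, the beta chain that pairs with Itga5 and whose promoter is shown beside that of Itga5, moved with it on its brighter spot. Pearson r over the 16 arrays was 0.907, a description over arrays that share the high pair. Over the 14 arrays without that pair r was 0.859. Genes other than integrins followed these chains more closely over the same 14 arrays. There r was 0.986 for Itga5 and Clptm1, 0.982 for Itga5 and Arpc4, and 0.976 for Itgb1 and Serf2. A high r was thus not particular to Itga5 with Itgb1. The dimmer Itgb1 spot was highest in PBS + CAV1 TSB 2, at 9.89, where Itga5 read 7.96. The pair came next on that spot, at 9.86 and 9.84, and its r with Itga5 was not computed. Itga11 ran opposite to Itga5 (r -0.767, and -0.545 without the pair) and to the brighter Itgb1 spot (-0.821 and -0.676). The collagen-binding Itga11 read 8.33, 8.80 and 8.97 in Bleomycin + CAV1 TSB and 8.68, 8.83 and 9.12 in Bleomycin + Control TSB. In PBS + CAV1 TSB it read 8.80 and 8.82, and in PBS + Control TSB 9.40 and 8.46.

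**Figure D4:**
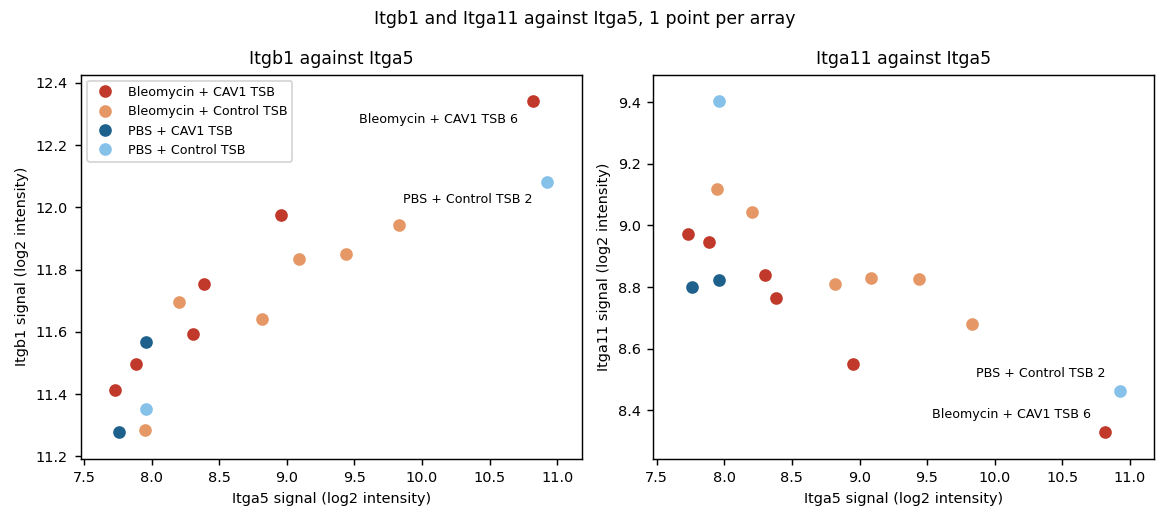
Log2 intensity of Itgb1 (brighter spot) and of Itga11 against that of Itga5, 1 point per array. PBS + Control TSB 2 and Bleomycin + CAV1 TSB 6 lie at the high Itga5 end of both plots, and r over all 16 arrays is 0.907 for Itgb1 and -0.767 for Itga11.

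The integrin chains outside the 10 were taken as 1 list of 17. Between CAV1 TSB and Control TSB after bleomycin 1 of them was higher and 1 lower, against 1.2% and 0.414% of all genes tested. Itga1, which pairs with Itgb1 to bind collagen IV, read 10.61 to 10.92 (median 10.67) in Bleomycin + CAV1 TSB, against 10.06 to 10.29 (median 10.12) in Bleomycin + Control TSB. The groups did not overlap, as was so in this direction for 1.5% of genes tested, and the difference was 0.59 (SE 0.07, limma adjusted p = 0.00028). After PBS the Itga1 arrays read 11.10 and 11.20 in PBS + CAV1 TSB and 10.51 and 10.36 in PBS + Control TSB, a difference of 0.72 (limma adjusted p = 0.0183). Here too, blocker and tissue content cannot be told apart. The PBS difference did not pass without PBS + CAV1 TSB 1, PBS + CAV1 TSB 2 or PBS + Control TSB 2, nor without both arrays that stood apart. Nor did it pass with a skeletal muscle covariate, the mean of spots, array weights, a replicate block or only the groups compared. A second Itga1 spot differed by 0.26 after PBS (limma adjusted p = 0.458 over all spots).

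The other was Itgam, a myeloid chain that pairs with Itgb2. It read 12.77 to 13.28 in Bleomycin + CAV1 TSB and 13.55 to 14.42 in Bleomycin + Control TSB, a difference of -0.94 (SE 0.15, limma adjusted p = 0.00271). Further spots of both genes did not show these differences: the second Itga1 spot differed by -0.06, and 2 further Itgam spots by -0.02 and -0.03. With the mean of each gene's spots neither gene passed, and without the 5 arrays low in squamous and muscle markers Itgam did not pass. The macrophage marker mean was 9.70 to 10.91 in Bleomycin + CAV1 TSB and 11.07 to 11.27 in Bleomycin + Control TSB, and its part in the Itgam difference was not tested.

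Between bleomycin and PBS, averaged over the blockers, 3 of the 17 other chains were higher and 1 lower, against 4.25% and 1.68% of all genes tested. Itgax, a chain of alveolar macrophages and dendritic cells, rose by 0.70 (limma adjusted p = 0.0118), Itga7, a laminin receptor of muscle, by 0.52 and Itgae, a chain of mucosal lymphocytes, by 0.40. Itga1 fell by 0.36 (limma adjusted p = 0.00769). The median over the 17 was -0.03. Without PBS + CAV1 TSB 1, where 1.91% of all genes passed in either direction, the counts were 0 higher and 1 lower. Without PBS + CAV1 TSB 2, where 3.04% passed, they were 1 and 1.

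The ligands of the integrins showed larger values after bleomycin than the chains did. Of 18 ligands 7 were higher in bleomycin than in PBS lungs and 1 was lower, with a median log2 difference of 0.44 against 0.01 over all genes. The same shares of all genes apply here. The 10 chains, the 17 others, this list and those below were all chosen with earlier results of these data known. Their counts and medians therefore describe the lists and are not an independent test. Spp1, the RGD ligand osteopontin, rose by 2.86 (SE 0.45), Fn1, the fibronectin gene, by 1.15 (SE 0.19), and the collagen I genes Col1a1 and Col1a2 by 1.03 and 0.70. The limma adjusted p for these 4 lay between 0.0026 and 0.00341. Vtn, which encodes vitronectin, fell by 0.41 (limma adjusted p = 0.0353). Without PBS + CAV1 TSB 1 the counts were 5 higher and 0 lower. Without both arrays that stood apart they were 8 and 0, with 4 and 0 for the latent complex and 5 and 1 for the response genes described next.

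Fn1 read 14.33, 15.01 and 15.35 (lowest, median, highest) in Bleomycin + CAV1 TSB and 14.92, 15.24 and 15.70 in Bleomycin + Control TSB. The PBS + CAV1 TSB arrays read 13.83 and 14.21, and the PBS + Control TSB arrays 13.40 and 14.35. Bleomycin and PBS arrays thus touched only in the lowest Bleomycin + CAV1 TSB reading. Spp1 read 10.28, 13.26 and 13.67 in Bleomycin + CAV1 TSB, the lowest being array 1, and 13.06, 13.79 and 14.04 in Bleomycin + Control TSB. In PBS + CAV1 TSB it read 9.76 and 10.27, and in PBS + Control TSB 10.54 and 11.03.

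A list of TGF-beta ligands, their latent complex and related matrix genes, called latent complex genes here, was also partly higher after bleomycin. Not all of its genes encode parts of the complex that alpha-v integrins act on. Of 11 genes 6 were higher and 0 lower, against 4.25% and 1.68% of all genes tested, with a median of 0.29. Ltbp2, a latent TGF-beta binding protein family member, rose by 1.03 (SE 0.17, limma adjusted p = 0.00288), Thbs1, a secreted activator of latent TGF-beta, by 1.03 and the microfibril gene Fbn1 by 0.68. Tgfb3 rose by 0.38. Without PBS + CAV1 TSB 1 the count was 1 of 11, and without PBS + CAV1 TSB 2 it was 3.

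Genes known to respond to TGF-beta gave 6 higher and 0 lower of 11 after bleomycin, with a median of 0.45. Of all genes tested 4.25% were higher and 1.68% lower. Tgfbi rose by 0.68 (SE 0.07, limma adjusted p = 0.000143), Ccn2, which encodes connective tissue growth factor, by 0.76, the activin subunit gene Inhba by 0.71 and the cell cycle inhibitor gene Cdkn1a by 1.41. Without PBS + CAV1 TSB 1 the count was 2. Of 20 genes of the adhesion machinery that links integrins to actin, 0 were higher and 2 lower, against the same shares of all genes. The lower ones were Tln2 and Fermt2, at -0.40 and -0.28 (limma adjusted p = 0.0411 and 0.0446). In 12 of the 16 fits that left out 1 array neither passed.

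Markers of other cell types moved in the same comparison. Of 5 macrophage markers 3 were higher after bleomycin (median 0.66), and so were 3 of 5 markers of transitional alveolar epithelium (median 0.57). Among 5 endothelial markers 1 was lower (median -0.31). Over all genes tested 4.25% were higher and 1.68% lower. The macrophage mean was 9.70 to 10.91 in Bleomycin + CAV1 TSB, 11.07 to 11.27 in Bleomycin + Control TSB and 9.64 to 10.01 in PBS arrays. The transitional epithelium mean was 11.76 to 12.52, 11.92 to 12.37 and 11.33 to 12.08 in the same order. Their part in the ligand, latent complex and response counts was not tested.

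Under each blocker alone the counts were smaller. Under Control TSB, 6 of 18 ligands, 4 of 11 latent complex genes and 5 of 11 response genes were higher after bleomycin, and 0 were lower, against 1.96% of all genes higher and 0.448% lower. Under CAV1 TSB, where 0.345% of all genes were higher and 0.172% lower, the counts were 0, 0 and 2, the last being Tgfbi and Cdkn1a, at 0.67 and 2.01. These counts do not by themselves show that the blockers differ, and of these lists 0 genes passed the test of the interaction. They also rested on single arrays. Without PBS + Control TSB 2 the Control TSB counts were 0, 0 and 1, and 0.455% of all genes passed. Without Bleomycin + CAV1 TSB 1 the CAV1 TSB counts of higher genes were 5, 3 and 3, and 3.55% of all genes passed.

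Between CAV1 TSB and Control TSB after bleomycin, 0 of 18 ligands, 0 of 11 latent complex genes and 0 of 20 adhesion genes passed with limma. At an unadjusted p under 0.05, 4 ligands were lower with CAV1 TSB (Ccn1 at -0.72, Col1a1 at -0.44, Tnc at -0.37 and Col1a2 at -0.36). In either direction 9.08% of all genes had such a p, and 1.61% passed. Of the 11 response genes 1 passed, Inhba, which read 8.11 to 8.62 (median 8.42) in Bleomycin + CAV1 TSB and 8.67 to 9.49 (median 8.91) in Bleomycin + Control TSB. The difference was -0.59 (SE 0.13, limma adjusted p = 0.0291). It did not pass without Bleomycin + CAV1 TSB 1, 3, 4 or 5, or without Bleomycin + Control TSB 1 or 3, nor without the 5 arrays low in squamous and muscle markers or with a replicate block. The median differences were -0.18 for the ligands, -0.15 for the latent complex and -0.15 for the response genes, and -0.01 over all genes.

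**Figure D5:**
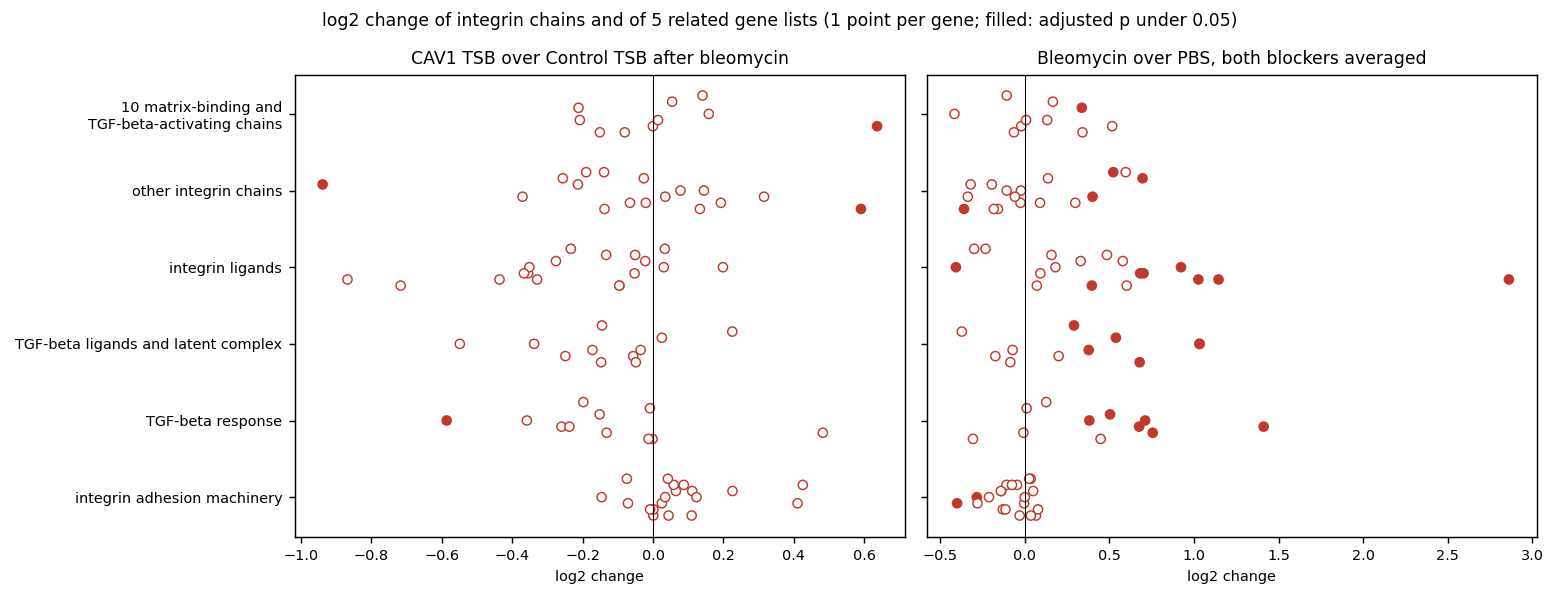
Log2 change of each gene of the 10 integrin chains and of the other lists, between CAV1 TSB and Control TSB after bleomycin and between bleomycin and PBS averaged over the blockers. Filled points passed at an adjusted p under 0.05, and the ligand list reaches 2.86 (Spp1) after bleomycin.

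Cav1, the gene the blocker is aimed at, differed by 0.24 between CAV1 TSB and Control TSB after bleomycin and by 0.09 after PBS (limma adjusted p = 0.642 and 0.855). It read 10.80, 10.86 and 11.39 (lowest, median, highest) in Bleomycin + CAV1 TSB and 10.47, 10.71 and 10.98 in Bleomycin + Control TSB, so that the groups overlapped. The array measures the transcript, not the protein.

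Last, the genes whose signal was most like that of each chain over the 16 arrays were listed, by Pearson r as a description of arrays that share the same groups. For Itgb6 they were Ccnd3 (r 0.943), which encodes cyclin D3, and Tonsl (0.898). For Itgav they were Kif1a (0.914) and Sh2b2 (0.912), and for Itgb5 they were Loxl2 (0.928), which encodes a collagen cross-linking enzyme, and Iqgap3 (0.908). Itga8 ran with Plpp3 (0.954) and Ogn (0.949), Ogn being a small matrix proteoglycan, and Itgb3 with Prkcq (0.847) and Alox12 (0.792). Itga5 ran with Clptm1 (0.993) and Arpc4 (0.992), Itgb1 with Serf2 (0.975) and Plscr3 (0.973), and Itga11 with Mdh1 (0.936) and Mtfp1 (0.934), and all 3 chains are among those extreme in the arrays that stood apart. For Itga2 they were Il17rb (0.846) and Clec4g (0.831), and for the dim Itgb8 they were Sp9 (0.743) and Spata31d1c (0.736).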

How the data were processed

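The deposited values are log2 intensities of a single-colour array, 1 column per sample, made with limma per the submitters' processing notes. Background correction, normalization settings and slide or scan are not given in the sources used here, so slide was not tested as a batch. Quantiles of the 16 deposited columns were nearly equal, as they are after normalization between arrays. Precision is limited by the number of arrays.

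Of 62976 spots, 31465 had 1 gene symbol and 31511 none, and 29050 of the named spots were given current symbols by accession (GRCm38.p6 RefSeq, for names and promoters only). The brightest spot by mean stood for each of 20863 genes. A gene entered the tests if 2 or more arrays read it above their 25th percentile, which left 20304.

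The model held a mean for each of the 4 groups and used every array (limma 3.58.1, R 4.3.3, lmFit with eBayes, leaving 12 residual degrees of freedom). Tests were two-sided, with Benjamini-Hochberg adjustment over all genes tested and 0.05 as the threshold. Intervals are 95% confidence intervals. Groups came from the sample titles, and samples were named by their replicate numbers there. The fit was also run on simulated data with independent noise, which held no arrays that stand apart as some do here.

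The 10 chains and the gene and marker lists were chosen with earlier results of these data known. Named were the 10 chains, Cav1, up to 4 genes of each list with the smallest p, any called gene running against its list, and the 2 genes most like each chain by Pearson r. Alternatives covered the dim filter, the choice of spot, normalization, moderation, array weights, a skeletal muscle covariate, a replicate block, the arrays fitted and each array left out. Leaving out both arrays that stood apart was added after seeing the data.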

Additional observations from a re-analysis of the deposited data

Results flagged for a closer look

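Itga2 in Bleomycin + Control TSB had 1 low array. Replicate 5 read 6.606, and the nearest of the other 5 arrays read 6.92. That gap was 0.686 of the whole range of the group, above the critical value of 0.625 for 6 arrays. Of 20 sets of a chain and a bleomycin group examined in this way 1 was flagged, and chance flags about 1 in 20. Labels give this array an RNA integrity number of 10, as they do for replicate 1 of the same group, and 9 for the rest.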

How the results depend on the processing

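Of the choices tried, no call held under all. In the comparison of CAV1 TSB with Control TSB after bleomycin, Itgb6 stayed positive in every alternative (0.579 to 0.637 besides the fits that left out 1 array) and passed in 9 of 13. The count of chains passing was 2 when each spot was tested on its own, and 0 with the muscle covariate, without the 5 arrays low in squamous and muscle markers and without both arrays that stood apart. For bleomycin against PBS averaged over the blockers the count was 2 with a 50th percentile filter, and 0 with trend and robust moderation, array weights or the muscle covariate. Under CAV1 TSB alone it was 2 with array weights, where 13.4% of all genes passed, and in the interaction it was 0 in all alternatives run. Leaving out 1 array gave counts from 0 to 4 for bleomycin averaged over the blockers, and from 0 to 1 for bleomycin under Control TSB and for the blockers after bleomycin or after PBS. The cause of these changes was not tested.

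Replicate numbers gave no clear pairing of the samples: the deviations of same-numbered bleomycin arrays correlated from -0.69 to 0.352 over 6 pairs. Arrays low in squamous and muscle markers correlated across numbers (Bleomycin + Control TSB 6 and Bleomycin + CAV1 TSB 3, 0.81). This check therefore cannot exclude a pairing. With the replicate block 0 chains passed for bleomycin averaged over the blockers and 0 for the blockers after bleomycin (Itgb6 adjusted p = 0.0764), and the genes called numbered 9 and 212, against 1204 and 327 without it. The block numbered 1, 0 and 14 genes for bleomycin under Control TSB, bleomycin under CAV1 TSB and the blockers after PBS, against 489, 105 and 63. It turned the sign of Itga2 (0.042), Itga5 (-0.145) and Itgb8 (-0.079) averaged over the blockers, Itgb8 (-0.053) under Control TSB and Itga2 (0.011) under CAV1 TSB.

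Other sign changes, in log2 differences that had not passed, were these. With the mean of spots: Itgav for the blockers after bleomycin (0.051) and after PBS (0.064), Itgav in the interaction (-0.013) and Itgb3 under CAV1 TSB (-0.023). With array weights: Itga2 averaged (0.004), Itgb1 under Control TSB (0.03) and for the blockers after bleomycin (-0.029), and Itga11 (0.048) and Itgav (-0.034) in the interaction. With the muscle covariate: Itgb1 under Control TSB (0.047), Itgb3 under CAV1 TSB (-0.201), for the blockers after PBS (0.208) and in the interaction (-0.107), and Itgav there (-0.02). Without the 5 low arrays: Itga2 (-0.024) and Itgb1 (0.066) under Control TSB, and Itga2 (0.057) and Itgb8 (-0.001) for the blockers after bleomycin. Without both arrays that stood apart: Itga2 (-0.193), Itga5 (0.929) and Itgb1 (0.357) under Control TSB, Itga11 (0.002) under CAV1 TSB, Itga2 (0.021), Itgb1 (-0.062) and Itgb8 (-0.003) for the blockers after bleomycin, Itga2 (-0.142), Itgb1 (0.07) and Itgb5 (0.124) after PBS, and Itga11 (0.522), Itga2 (0.163), Itga5 (-0.537) and Itgb1 (-0.132) in the interaction.

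With 1 array left out, ranges crossed 0 as follows. The sign turned for CAV1 TSB against Control TSB after bleomycin in Itga2 (-0.064 to 0.028), Itgb1 (-0.062 to 0.124) and Itgb8 (-0.015 to 0.052). It turned for the blockers after PBS in Itga11 (-0.592 to 0.35), Itga2 (-0.142 to 0.265), Itgb1 (-0.661 to 0.07), Itgb3 (-0.316 to 0.06) and Itgb5 (-0.143 to 0.124). It turned for bleomycin against PBS averaged over the blockers in Itga11 (-0.299 to 0.172), Itga2 (-0.122 to 0.081), Itga5 (-0.609 to 0.875), Itgb1 (-0.017 to 0.349) and Itgb8 (-0.015 to 0.03). It turned for bleomycin under Control TSB in Itga11 (-0.52 to 0.422), Itga2 (-0.193 to 0.214), Itga5 (-2.04 to 0.929), Itgb1 (-0.374 to 0.357) and Itgb8 (-0.01 to 0.08). It turned for bleomycin under CAV1 TSB in Itga11 (-0.126 to 0.002), Itga2 (-0.123 to 0.019), Itgb3 (-0.16 to 0.216) and Itgb8 (-0.064 to 0.026). It turned for the interaction in Itga11 (-0.501 to 0.441), Itga2 (-0.266 to 0.141), Itga5 (-0.109 to 2.86), Itgav (-0.156 to 0.177), Itgb1 (-0.016 to 0.715), Itgb5 (-0.204 to 0.062) and Itgb6 (-0.554 to 0.195). Without the 5 low arrays no PBS + CAV1 TSB array is left, so comparisons that need that group were not run, and a fit to the compared groups alone does not apply to the averaged effect or the interaction. Where a PBS group was left with 1 array, its spread was taken to equal that of the rest.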
